A study of Mus musculus with 36 samples.

Results

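Transcripts of 10 nuclear receptors that bind DNA together with a retinoid X receptor (RXR) were followed in mouse intestinal organoids: Ppara, Ppard and Pparg, Nr1h2 (LXRβ), Nr1h3 (LXRα), Nr1h4 (FXR), Vdr, Nr1i2 (PXR), Nr1i3 (CAR) and Thra. They were picked by gene symbol and not by a cut on measured values, but with earlier results of these data known. They are 10 of the 12652 genes of the deposited table. All 10 passed the filter on low values (at least 1 RPKM in at least 4 of 36 libraries), as did 11361 genes in all. RPKM scales reads to the length of the gene and to a divisor for the library, so levels of different genes are compared per length. Here that divisor was not the plain depth. In every library at 24 h it was below the reads recovered from the values of the same library, and at 0 h and 6 h above them. For some receptors the length behind the RPKM was far from the exon bases annotated in GENCODE. It was 7528 against 3836 bases for Ppara, 4102 against 7514 for Ppard and 2906 against 4414 for Nr1i3. An order among the genes therefore holds only for the lengths behind these values.

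The organoids came from 2 wild-type C57BL/6 mice, male littermates of 8 weeks, and each condition thus has n = 2 mice. Cells were seeded singly and grown to day 3 in a medium with EGF, Noggin and R-spondin (ENR) to which Wnt3a-conditioned medium, the ROCK inhibitor Y-27632 and the GSK3 inhibitor CHIR99021 were added. On day 3 the medium was changed to plain ENR together with 9-cis retinoic acid (9cisRA, 10 µM), all-trans retinoic acid (atRA, 10 µM), an RXR antagonist (RXRi, 5 µM, its chemical name not given in the labels) or DMSO, and RNA was taken after 6 h and 24 h. Untreated organoids were taken at 0 h. RNA of 3 pooled wells was purified in duplicate, so the 9 conditions hold 4 libraries each. The duplicates come from the same culture and are not independent. The cultures at 0 h had neither DMSO nor the medium change, so vehicle, medium and time cannot be told apart in a comparison with 0 h. The questions addressed are what the RXR ligand 9cisRA, its isomer atRA and the antagonist change in these receptors relative to vehicle, and whether the isomers differ.

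RXR is the common partner of a large branch of the nuclear receptors. Each partner senses its own class of small molecules: fatty acids (the PPARs), oxysterols (the LXRs), bile acids (FXR), vitamin D (VDR), foreign chemicals and steroids (PXR and CAR) and thyroid hormone (the TRs). With PPARs, LXRs and FXR an RXR ligand alone can switch the pair on, while RXR paired with VDR or TR has been described as a largely silent partner. In the gut these receptors govern fat oxidation, cholesterol efflux, the bile acid signal to the liver, calcium uptake and drug metabolism. 9cisRA binds both RXR and the retinoic acid receptors (RARs), and atRA is the ligand of the RARs.

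The promoters of the receptors whose transcripts moved most are shown to place the measured genes in sequence. They are RefSeq windows of 300 bases on GRCm38.p6, from 250 bases before to 50 after an annotated start, and 12 such windows matched 9 of the 10 receptors (Thra was not matched). The windows of Vdr, Nr1i2, Nr1i3 and Nr1h3 belong to the 4 transcripts with the largest falls under RXRi, and that of Ppara to the transcript with the largest rise under either retinoic acid isomer. The core motif of this receptor class was searched on both strands as AGGTCA, also as GGGTCA, further as AGTTCA, or written GGTTCA, and is in capitals where found.
Vdr, chr15:97908247-97908546, minus strand: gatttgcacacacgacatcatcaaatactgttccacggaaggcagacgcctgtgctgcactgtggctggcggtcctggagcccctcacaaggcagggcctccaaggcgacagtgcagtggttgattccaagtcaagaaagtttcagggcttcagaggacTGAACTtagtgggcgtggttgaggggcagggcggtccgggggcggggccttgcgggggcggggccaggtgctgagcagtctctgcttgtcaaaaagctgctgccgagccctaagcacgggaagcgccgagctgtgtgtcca
Nr1i2, chr16:38294775-38295074, minus strand: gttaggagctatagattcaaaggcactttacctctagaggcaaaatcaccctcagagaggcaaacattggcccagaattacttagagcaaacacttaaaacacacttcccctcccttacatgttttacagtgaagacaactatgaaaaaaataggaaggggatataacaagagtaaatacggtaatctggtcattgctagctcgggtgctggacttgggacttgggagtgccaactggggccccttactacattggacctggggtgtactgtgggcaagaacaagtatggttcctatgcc
Nr1i3, chr1:171213720-171214019, plus strand: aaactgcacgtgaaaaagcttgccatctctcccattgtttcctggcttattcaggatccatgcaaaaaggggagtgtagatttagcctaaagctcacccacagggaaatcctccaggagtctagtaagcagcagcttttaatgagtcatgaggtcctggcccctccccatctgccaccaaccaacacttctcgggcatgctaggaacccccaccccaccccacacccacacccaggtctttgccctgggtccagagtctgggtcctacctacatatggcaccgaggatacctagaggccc
Nr1h3, chr2:91195067-91195366, minus strand: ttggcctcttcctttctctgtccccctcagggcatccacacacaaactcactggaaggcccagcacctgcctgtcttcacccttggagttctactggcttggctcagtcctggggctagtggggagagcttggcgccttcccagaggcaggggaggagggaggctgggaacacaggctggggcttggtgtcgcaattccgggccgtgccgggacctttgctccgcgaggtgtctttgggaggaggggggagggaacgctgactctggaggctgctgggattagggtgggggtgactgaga
Ppara, chr15:85735526-85735825, plus strand: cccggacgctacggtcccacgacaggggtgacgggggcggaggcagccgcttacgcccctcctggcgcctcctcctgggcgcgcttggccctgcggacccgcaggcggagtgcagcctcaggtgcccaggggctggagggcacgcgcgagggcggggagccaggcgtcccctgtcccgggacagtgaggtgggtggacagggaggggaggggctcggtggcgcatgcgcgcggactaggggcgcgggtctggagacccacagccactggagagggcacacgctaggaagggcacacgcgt
Only the Vdr window among these 5 held a core motif, AGTTCA on the opposite strand, 91 bases before the start. Of all 12 windows 4 held at least 1 core motif (the others being that of Nr1h4 and 2 of the 3 of Pparg). A direct repeat of it with 0 to 5 bases between, an arrangement that RXR pairs are known to bind, was in 0. Repeats with copies on opposite strands were not searched. Among all 32851 promoters of the same length, 43.71% held a core motif, 16.26% the form AGGTCA and 0.91% a direct repeat. A match is a description of the letters, and no match says nothing of sites outside the window.

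The tissue label was checked first. The 7 epithelial markers summed to 6260 to 12400 RPKM in every library, while of 10 markers of leukocytes, fibroblasts, endothelium and muscle only Cd68 (2.35 to 6.29 RPKM) and Acta2 (1.04 to 2.44 RPKM) were in the analysed rows. Reads recovered from the values summed to 19640305 to 30686200 per library. A receptor's value rested on 50 reads at the fewest (Nr1h3 with RXRi at 24 h) and 4991 at the most (Ppara), so the low values of Nr1h3 and Nr1i3 carry the widest counting error.

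The order of abundance among the 10 receptors depended on the condition. Pparg ranked highest in 7 of the 9 conditions, and Nr1i2 in the other 2, 9cisRA and atRA at 24 h. The condition means of Pparg ran from 35.0 to 61.7 RPKM over all 9 conditions. Nr1i2 was the fifth with RXRi at both times. Nr1h3 had the lowest mean in 7 conditions and Nr1i3 in the other 2, while with DMSO at 24 h Nr1i3 was the fifth. The span across conditions was widest for Nr1i3, whose highest condition mean was 12.3 times its lowest. It was 8.23 times for Ppara, 7.99 for Vdr, 6.85 for Nr1h3 and 5.53 for Nr1i2. The other 5 receptors spanned 1.64 (Nr1h2) to 2.52 times (Nr1h4).

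**Figure D1:**
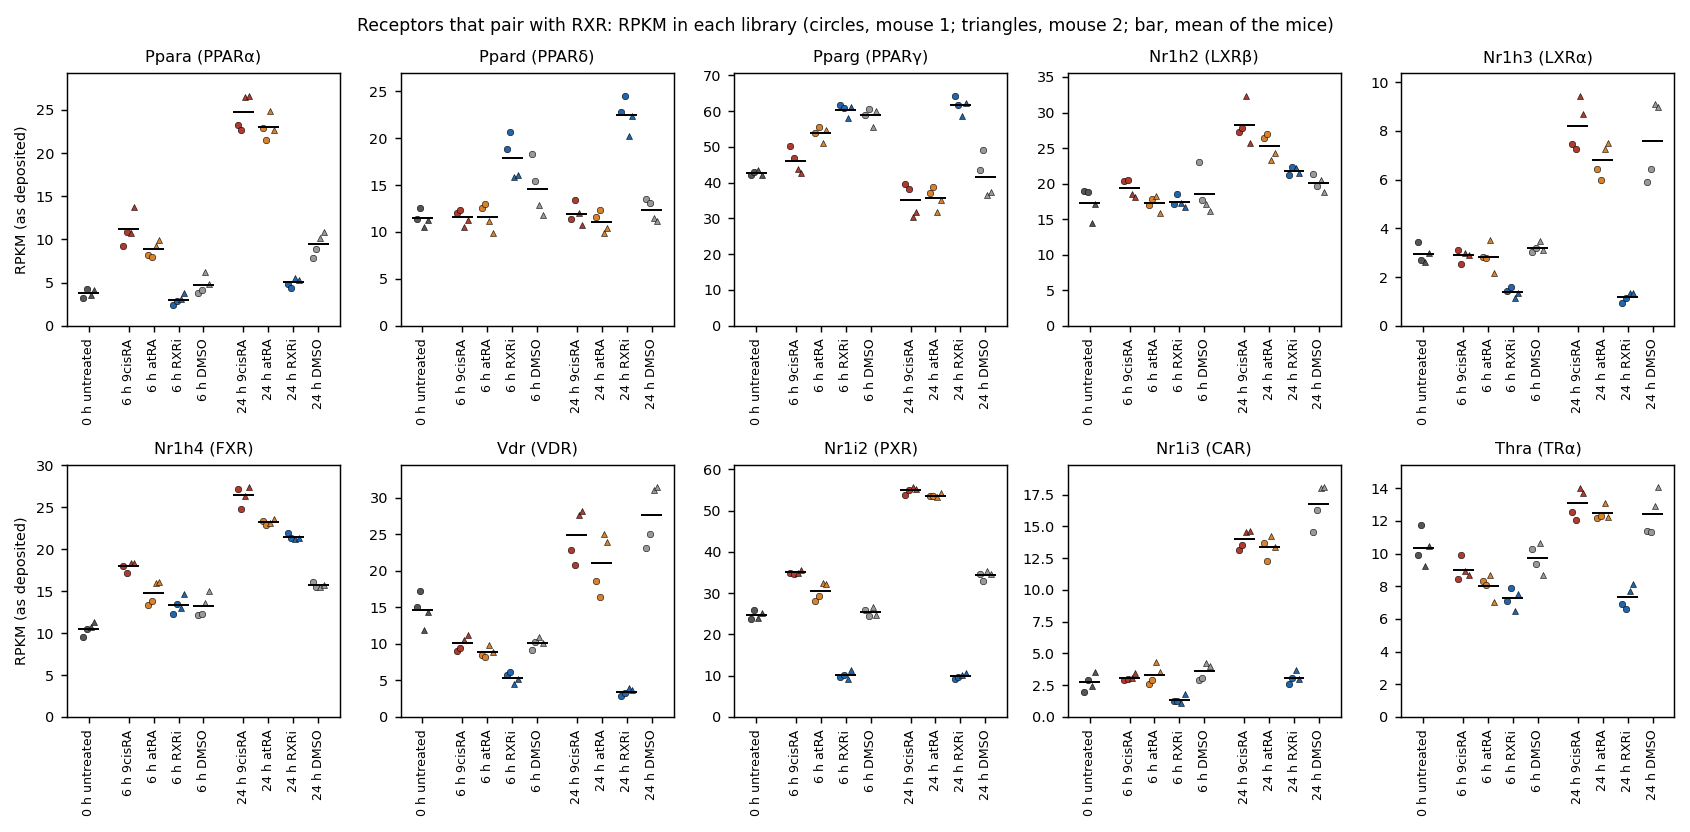
RPKM of each of the 10 receptors (y axis, linear from 0) in each of the 36 libraries by condition (x axis). Circles are mouse 1, triangles mouse 2 and the bar the mean of the mice. Vdr, Nr1i3, Nr1h3 and Nr1i2 lie lowest with RXRi at 24 h or 6 h, and Ppara lies highest with 9cisRA and atRA at 24 h.

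Ordered by condition mean, few neighbouring conditions were apart in all their libraries. For Nr1h4 the ranges of 5 of the 8 neighbouring pairs did not overlap, for Nr1i2 4, for Vdr 3, and for Ppara, Pparg, Nr1h3 and Nr1i3 2 each. Nr1h2 had 1 such gap, and Ppard and Thra 0. The gaps of Ppara lay below the retinoic acid conditions at 24 h and above RXRi at 24 h. At 24 h the libraries of the isomers overlapped for every receptor but Nr1h4.

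The antagonist gave the widest change. With RXRi at 24 h, 6 of the 10 receptors fell and 3 rose against DMSO, and at 6 h 6 fell and 1 rose. Of all tested genes 30.4% were called lower and 31.1% higher at 24 h, and 14.6% lower and 10.6% higher at 6 h. The split at 6 h, 1203 higher and 1655 lower, was 1543 and 1420 with quantile normalization and 1498 and 1484 with read-sum scaling. The 24 h split was 3535 and 3452, against 4248 and 2840 with quantile normalization and 3126 and 3891 with read-sum scaling. The median log2 fold change of the 10 receptors was -0.78 at 24 h and -0.49 at 6 h, against medians of 0.00 and -0.00 over all tested genes. All fold changes were taken after adding 0.5 to the RPKM, so those of low genes are understated, and a call is an adjusted p below 0.05 in limma. In these bulk samples, fewer cells of a type and less RNA per cell cannot be told apart.

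The retinoic acid isomers changed fewer of the 10, with more rises than falls, as was also so among all called genes at 6 h. With 9cisRA 3 rose and 2 fell at 6 h (all genes 5.01% higher and 3.03% lower), and 4 rose and 2 fell at 24 h (24.4% and 23.5%). With atRA 2 rose and 1 fell at 6 h (2.79% and 1.87%), and 4 rose and 2 fell at 24 h (19.4% and 18.6%). The same DMSO libraries serve all 3 compounds at each time. The split of all called genes at 24 h depended on the scaling: with libraries scaled to the sum of their reads, 1576 were higher and 4589 lower with 9cisRA (2775 and 2671 as deposited), and 1329 and 3549 with atRA (2203 and 2111). That scaling put the median of all genes at -0.12 for 9cisRA, and every called receptor kept its direction under it.

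**Figure D2:**
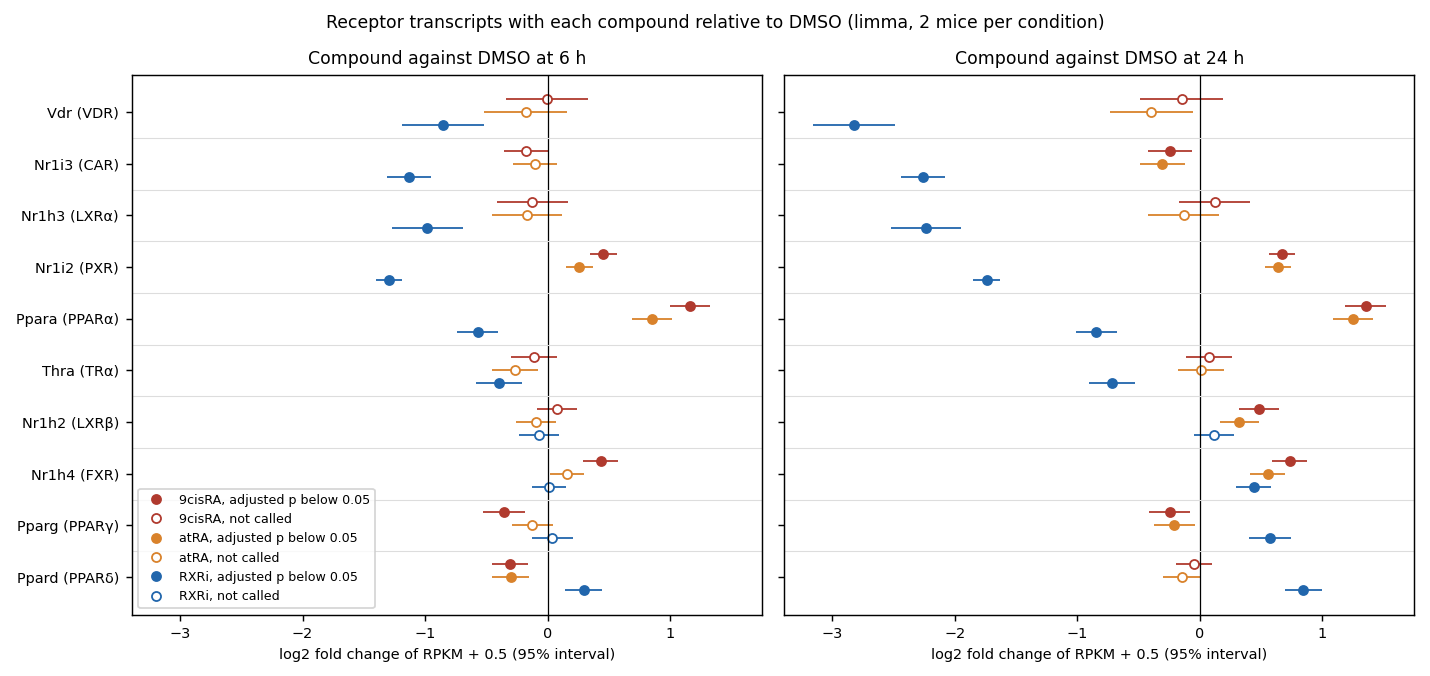
Log2 fold change of RPKM + 0.5 against DMSO at 6 h (left) and 24 h (right) with 95% intervals (x axis) for each receptor (y axis), for 9cisRA, atRA and RXRi. Filled points were called at an adjusted p below 0.05 in limma. At 24 h RXRi lies at -2.82 for Vdr, -2.26 for Nr1i3, -2.24 for Nr1h3 and -1.74 for Nr1i2, while Ppard, Pparg and Nr1h4 lie above 0.

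Vdr, the vitamin D receptor, lost the most with the antagonist at 24 h, while at 6 h Nr1i2, Nr1i3 and Nr1h3 fell further. In the values that follow the 2 duplicates of mouse 1 precede those of mouse 2. At 24 h Vdr (chr15:97854425-97910630, minus strand, GRCm38) had 2.91, 3.27, 4.02 and 3.66 RPKM with RXRi, against 23.1, 25.04, 31.1 and 31.4 RPKM with DMSO. Every RXRi library lay below every DMSO library, and mouse 2 had the higher level in both conditions. The mean was 7.99 times lower with RXRi, a log2 fold change of -2.82 ± 0.16 (SE, adjusted p = 3.59e-09). At 6 h Vdr had 5.81, 6.10, 4.48 and 5.18 RPKM with RXRi and 9.12, 10.2, 10.96 and 10.1 RPKM with DMSO, again without overlap, and fell by 0.85 ± 0.16 on the log2 scale (adjusted p = 0.00121).

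The isomers left Vdr without a call. At 24 h it had 22.8, 20.8, 27.7 and 28.2 RPKM with 9cisRA, 18.6, 16.5, 25.03 and 23.96 RPKM with atRA and the DMSO values above. Within mouse 1 and within mouse 2 the libraries of both isomers lay below the DMSO libraries of the same mouse, while the pooled ranges overlapped. The log2 fold change was -0.40 for atRA (95% interval -0.73 to -0.06, adjusted p = 0.061) and -0.15 for 9cisRA (adjusted p = 0.449).

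Nr1i2 encodes PXR, the sensor of foreign chemicals that drives drug-metabolizing enzymes. At 24 h it (chr16:38248323-38294824, minus strand) had 9.22, 9.67, 10.1 and 10.7 RPKM with RXRi, 53.7, 55.1, 55.6 and 55.2 RPKM with 9cisRA, 53.5, 53.6, 53.4 and 54.2 RPKM with atRA, and 34.5, 32.9, 35.3 and 34.6 RPKM with DMSO. No library of RXRi or of either isomer overlapped the DMSO range, and the antagonist and the isomers lay on opposite sides of it. The log2 fold change was -1.74 ± 0.050 for RXRi (adjusted p = 7.14e-12), 0.67 ± 0.050 for 9cisRA (adjusted p = 6.20e-07) and 0.64 ± 0.050 for atRA (adjusted p = 1.42e-06).

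The same order was present at 6 h. Nr1i2 had 9.80, 10.1, 9.19 and 11.3 RPKM with RXRi, 34.8, 34.7, 35.0 and 35.6 RPKM with 9cisRA, 28.2, 29.4, 32.5 and 32.2 RPKM with atRA, and 26.0, 24.6, 26.7 and 24.6 RPKM with DMSO. The RXRi libraries of the 2 times overlapped. The log2 fold change was -1.30 ± 0.050 for RXRi (adjusted p = 1.60e-09), 0.45 ± 0.050 for 9cisRA (adjusted p = 7.57e-05) and 0.26 ± 0.050 for atRA (adjusted p = 0.00981). The atRA call at 6 h was lost without mouse 2 (log2 0.19, adjusted p = 0.0566).

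Nr1i3 encodes CAR, the other drug sensor, and stood out for its rise with time in vehicle and its fall with the antagonist. At 24 h it (chr1:171213970-171220701, plus strand) had 2.62, 3.08, 3.68 and 3.01 RPKM with RXRi, 13.2, 13.5, 14.6 and 14.7 RPKM with 9cisRA, 13.7, 12.3, 14.3 and 13.4 RPKM with atRA, and 14.5, 16.3, 18.04 and 18.06 RPKM with DMSO. The RXRi libraries lay far below all others, and each isomer library lay below the DMSO libraries of the same mouse. RXRi lowered it 5.40 times at 24 h (log2 -2.26 ± 0.084, adjusted p = 7.87e-11) and by 1.13 ± 0.084 on the log2 scale at 6 h (adjusted p = 4.84e-07), where it had 1.12 to 1.81 RPKM with RXRi and 2.94 to 4.26 RPKM with DMSO.

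The smaller falls of Nr1i3 with the isomers at 24 h were less stable. They were -0.25 ± 0.084 for 9cisRA (adjusted p = 0.0274) and -0.31 ± 0.084 for atRA (adjusted p = 0.0118). Without the mouse in the model neither passed (adjusted p = 0.228 for 9cisRA and 0.163 for atRA), nor did either without mouse 1 (-0.30 and -0.37, adjusted p = 0.138 and 0.0945) or mouse 2 (-0.20 and -0.24, adjusted p = 0.198 and 0.125), and 9cisRA also not without mouse 1 duplicate 2 of DMSO (-0.21, adjusted p = 0.0626). Nr1i3 shares 3304 exon bases with Tomm40l on the opposite strand, and the strand used in counting is not stated, so their reads cannot be told apart. Tomm40l itself averaged 16.0 ± 0.211 RPKM with RXRi and 16.1 ± 0.629 RPKM with DMSO at 24 h (SD, n = 2 mice).

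Among the LXRs, which sense oxysterols and drive cholesterol efflux and fatty acid synthesis, the 2 genes moved apart. Nr1h3 (LXRα, chr2:91184061-91202834, minus strand) had 0.952, 1.16, 1.32 and 1.36 RPKM with RXRi at 24 h, against 5.90, 6.44, 9.11 and 8.97 RPKM with DMSO. These values rest on 50 to 80 reads per RXRi library and 304 to 498 reads per DMSO library. The ranges did not overlap, the mean was 6.34 times lower with RXRi, and the log2 fold change was -2.24 ± 0.13 (adjusted p = 7.80e-09). At 6 h it had 1.14 to 1.57 RPKM with RXRi and 3.02 to 3.47 RPKM with DMSO (-0.98 ± 0.13, adjusted p = 0.000115). Neither isomer gave a call for Nr1h3, with log2 fold changes at 24 h of 0.12 for 9cisRA and -0.13 for atRA. It shares 34 exon bases with the transcript Gm13783 on the same strand.

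Nr1h2 (LXRβ, chr7:44549616-44553951, minus strand) rose with the isomers at 24 h and had no call with RXRi. At 24 h it had 27.2, 27.9, 32.3 and 25.7 RPKM with 9cisRA, 26.4, 26.9, 23.3 and 24.3 RPKM with atRA, 21.1, 22.3, 22.2 and 21.5 RPKM with RXRi, and 21.4, 19.7, 20.6 and 18.8 RPKM with DMSO. Both isomers lay above every DMSO library, and RXRi overlapped DMSO. Against DMSO the log2 fold change was 0.48 ± 0.075 for 9cisRA (adjusted p = 0.000208), 0.32 ± 0.075 for atRA (adjusted p = 0.00475) and 0.11 for RXRi (95% interval -0.05 to 0.28, adjusted p = 0.202). The atRA call was lost without mouse 1 (0.27, adjusted p = 0.0605). At 6 h no compound gave a call.

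Nr1h4 encodes FXR, the bile acid receptor, and was higher with all 3 compounds at 24 h. It (chr10:89454234-89533585, minus strand) had 27.2, 24.8, 26.3 and 27.3 RPKM with 9cisRA, 23.4, 22.9, 23.1 and 23.5 RPKM with atRA, 21.9, 21.3, 21.2 and 21.3 RPKM with RXRi, and 16.1, 15.5, 15.4 and 15.7 RPKM with DMSO. None of the 4 ranges overlapped, and the order was the same in both mice. Against DMSO the log2 fold change was 0.73 ± 0.066 for 9cisRA (adjusted p = 2.45e-06), 0.55 ± 0.066 for atRA (adjusted p = 3.72e-05) and 0.44 ± 0.066 for RXRi (adjusted p = 6.14e-05). At 6 h 9cisRA alone gave a call, at 17.2 to 18.4 RPKM against 12.2 to 15.0 RPKM with DMSO (0.43 ± 0.066, adjusted p = 0.00105), while atRA was at 0.16 (adjusted p = 0.193) and RXRi at 0.01 (adjusted p = 0.922).

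The 3 PPARs, fatty acid sensors, took different directions. Ppara, the driver of fatty acid oxidation (chr15:85734983-85802819, plus strand), had 23.2, 22.7, 26.5 and 26.6 RPKM with 9cisRA at 24 h, 22.9, 21.5, 24.9 and 22.6 RPKM with atRA, 4.83, 4.39, 5.50 and 5.34 RPKM with RXRi, and 7.87, 8.90, 10.1 and 10.9 RPKM with DMSO. Both isomers lay above and RXRi below every DMSO library. The mean was 2.62 times that of DMSO with 9cisRA (log2 1.35 ± 0.076, adjusted p = 6.08e-08) and 2.44 times with atRA (1.25 ± 0.076, adjusted p = 1.63e-07), and 1.88 times lower with RXRi (-0.84 ± 0.076, adjusted p = 5.27e-07).

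At 6 h Ppara had already moved in the same directions. It had 9.25, 10.9, 10.8 and 13.8 RPKM with 9cisRA, 8.15, 8.01, 9.24 and 9.94 RPKM with atRA, 2.40, 2.82, 3.04 and 3.77 RPKM with RXRi, and 3.84, 4.13, 6.18 and 4.78 RPKM with DMSO. The isomers were clear of DMSO, and RXRi lay below it within each mouse. Against DMSO the log2 fold change was 1.16 ± 0.076 for 9cisRA (adjusted p = 1.01e-06), 0.85 ± 0.076 for atRA (adjusted p = 3.68e-05) and -0.57 ± 0.076 for RXRi (adjusted p = 9.98e-05).

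Ppard, the broadly expressed PPAR (chr17:28232700-28301474, plus strand), rose with the antagonist. At 24 h it had 22.8, 24.5, 20.2 and 22.4 RPKM with RXRi, against 13.6, 13.1, 11.5 and 11.1 RPKM with DMSO, with no overlap and a log2 fold change of 0.84 ± 0.069 (adjusted p = 1.81e-07). The isomers gave no call at 24 h (-0.05 for 9cisRA and -0.15 for atRA). At 6 h its level differed between the mice, at 18.3 and 15.4 RPKM in mouse 1 and 12.9 and 11.8 RPKM in mouse 2 with DMSO, and the log2 fold changes were -0.31 ± 0.069 for 9cisRA (adjusted p = 0.0138), -0.30 ± 0.069 for atRA (adjusted p = 0.0229) and 0.29 ± 0.069 for RXRi (adjusted p = 0.00656).

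These 3 calls of Ppard at 6 h rested on the mouse term. Without it the adjusted p was 0.348 for 9cisRA, 0.379 for atRA and 0.208 for RXRi. The calls were also lost without mouse 1 for 9cisRA (-0.17, adjusted p = 0.27) and atRA (-0.22, adjusted p = 0.218), without mouse 2 for RXRi (0.23, adjusted p = 0.0914), without mouse 1 duplicate 2 of DMSO for RXRi (0.23, adjusted p = 0.069), and without mouse 2 duplicate 1 of DMSO (-0.27, adjusted p = 0.0714) or mouse 2 duplicate 2 of atRA (-0.26, adjusted p = 0.0594) for atRA.

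Pparg, known for lipid storage and for its high level in gut epithelium (chr6:115360951-115490399, plus strand), was higher with RXRi and lower with both isomers at 24 h. It had 64.2, 61.6, 58.7 and 62.4 RPKM with RXRi, 39.5, 38.3, 30.5 and 31.7 RPKM with 9cisRA, 37.2, 38.7, 31.9 and 35.2 RPKM with atRA, and 43.6, 49.2, 36.5 and 37.4 RPKM with DMSO. RXRi was clear of all others, and the isomers lay below the DMSO libraries of the same mouse while the pooled ranges overlapped. Against DMSO the log2 fold change was 0.57 ± 0.078 for RXRi (adjusted p = 2.67e-05), -0.25 ± 0.078 for 9cisRA (adjusted p = 0.0193) and -0.21 ± 0.078 for atRA (adjusted p = 0.0474). At 6 h 9cisRA gave the only call, at 42.6 to 50.3 RPKM against 55.7 to 60.5 RPKM with DMSO (-0.36 ± 0.078, adjusted p = 0.0122).

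The falls of Pparg with the isomers were lost without the mouse term, with adjusted p = 0.0921 for 9cisRA at 24 h, 0.109 for 9cisRA at 6 h and 0.171 for atRA at 24 h. The atRA call also ended with no trend in the prior (adjusted p = 0.0602), without mouse 1 (-0.14, adjusted p = 0.128), without mouse 1 duplicate 2 (-0.17, adjusted p = 0.0815) or mouse 2 duplicate 2 of DMSO (-0.20, adjusted p = 0.0604), and without mouse 1 duplicate 1 (-0.20, adjusted p = 0.0642) or mouse 2 duplicate 1 of atRA (-0.18, adjusted p = 0.0914).

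Thra, the thyroid hormone receptor of the intestinal epithelium (chr11:98740638-98769006, plus strand), was called with the antagonist and with neither isomer. At 24 h it had 6.92, 6.59, 7.70 and 8.13 RPKM with RXRi, against 11.4, 11.3, 12.9 and 14.0 RPKM with DMSO. The ranges were apart, and the mean was 1.69 times lower with RXRi (log2 -0.72 ± 0.087, adjusted p = 8.89e-06). At 6 h it had 6.49 to 7.92 RPKM with RXRi and 8.70 to 10.6 RPKM with DMSO (-0.40 ± 0.087, adjusted p = 0.00417). The log2 fold changes at 24 h were 0.07 for 9cisRA and 0.01 for atRA. At 6 h the atRA libraries of Thra (7.06 to 8.68 RPKM) lay just below every DMSO library, without a call. Those of 9cisRA at 6 h (8.43 to 9.90 RPKM) overlapped DMSO. Thra shares 263 exon bases with Nr1d1 on the opposite strand, which averaged 13.4 ± 0.582 RPKM with RXRi and 12.6 ± 0.167 RPKM with DMSO at 24 h (SD, n = 2 mice).

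9cisRA and atRA are geometric isomers, of the same composition and differing in the configuration of a double bond in the side chain, and both were given at 10 µM. The 10 receptors were compared at both times, 20 pairs in all, and none was called (limma, 5 with an unadjusted p below 0.05 at 6 h and 1 at 24 h). Of all tested genes 1.72% were called at 6 h and 0.467% at 24 h. The largest differences at 6 h, 9cisRA over atRA, were 0.31 for Ppara (95% interval 0.15 to 0.48, adjusted p = 0.06), 0.27 for Nr1h4 (0.13 to 0.42, adjusted p = 0.0556), 0.20 for Nr1i2 (0.09 to 0.30, adjusted p = 0.0752) and -0.23 for Pparg (-0.40 to -0.06, adjusted p = 0.159).

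The Nr1h4 libraries at 6 h did not overlap, at 17.2 to 18.4 RPKM with 9cisRA and 13.3 to 16.1 RPKM with atRA, nor did those of Nr1i2. Pparg did not overlap either and went the other way, at 42.6 to 50.3 RPKM with 9cisRA and 51.1 to 55.6 RPKM with atRA. At 24 h the intervals were -0.06 to 0.27 for Ppara, 0.04 to 0.32 for Nr1h4, -0.08 to 0.14 for Nr1i2 and -0.20 to 0.13 for Pparg, while that of Vdr, -0.09 to 0.58, was the widest. Differences of the sizes inside these intervals were thus not resolved with 2 mice. Voom on the recovered reads called 4 of the 10 at 6 h and 1 at 24 h, and the fit with the 36 libraries as samples called 4 at 6 h. Both fits count the duplicates of 1 culture as independent samples, which they are not.

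**Figure D3:**
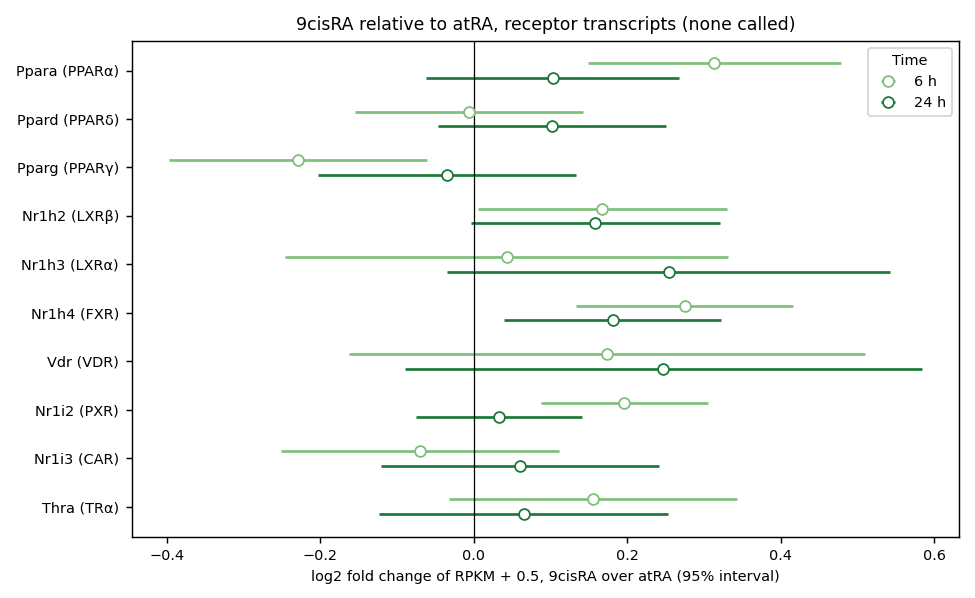
Log2 fold change of RPKM + 0.5 for 9cisRA over atRA (x axis, with 95% intervals) for each receptor (y axis) at 6 h and 24 h. None was called. The 6 h intervals of Ppara, Nr1h4 and Nr1i2 lie above 0 and that of Pparg below it.

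The vehicle cultures themselves moved most of these receptors. Between 0 h and 24 h in DMSO 8 of the 10 rose and 0 fell, where 29.2% of all tested genes rose and 30.3% fell. Nr1i3 had 2.00, 2.88, 2.47 and 3.56 RPKM at 0 h, 2.94, 3.09, 4.26 and 4.05 RPKM at 6 h and 14.5, 16.3, 18.04 and 18.06 RPKM at 24 h. Its 24 h libraries lay clear of both earlier times, and the rise amounted to 2.43 ± 0.084 on the log2 scale by 24 h (adjusted p = 2.28e-10). Nr1h3 had 2.61 to 3.45, 3.02 to 3.47 and 5.90 to 9.11 RPKM at 0 h, 6 h and 24 h and rose by 1.22 over 24 h (adjusted p = 5.29e-06), and Ppara by 1.20 (adjusted p = 3.38e-08).

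Vdr followed a different course in vehicle. It had 15.0, 17.2, 11.9 and 14.4 RPKM at 0 h, 9.12, 10.2, 10.96 and 10.1 RPKM at 6 h and 23.1, 25.04, 31.1 and 31.4 RPKM at 24 h. It was lowest at 6 h in both mice and highest at 24 h, with -0.50 for 6 h against 0 h (adjusted p = 0.0185), 1.40 for 24 h against 6 h (adjusted p = 6.93e-06) and 0.90 for 24 h against 0 h (adjusted p = 0.000266). The 6 h call was lost without mouse 2 duplicate 2 of 0 h (-0.43, adjusted p = 0.0552), and without mouse 2 the value for 24 h against 0 h was 0.57.

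Smaller rises over 24 h in vehicle were those of Nr1h4 (0.56, adjusted p = 9.72e-06), Nr1i2 (0.47, adjusted p = 4.52e-06), Thra (0.25, adjusted p = 0.0238) and Nr1h2 (0.22, adjusted p = 0.0247). The Nr1h2 rise was lost with read-sum scaling (adjusted p = 0.134), without the mouse term (0.0784), without mouse 2 (0.11, adjusted p = 0.296), and without mouse 2 duplicate 1 of 0 h (0.16, adjusted p = 0.0645) or duplicate 1 of DMSO in mouse 1 (0.19, adjusted p = 0.0523) or mouse 2 (0.18, adjusted p = 0.0504). That of Thra was lost with read-sum scaling (adjusted p = 0.0938), quantile normalization (0.0525), without mouse 2 (0.07, adjusted p = 0.539) and without mouse 1 duplicate 1 of 0 h (0.19, adjusted p = 0.107). Ppard and Pparg were not called (0.10 and -0.05).

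Over the first 6 h in vehicle 5 of the 10 rose and 1, Vdr, fell (all genes 22.3% higher and 23.4% lower). Pparg rose by 0.46 (adjusted p = 0.000406) and Nr1h4 by 0.32 (adjusted p = 0.00163). The rises of Nr1i3 (0.35, adjusted p = 0.00442), Ppard (0.32, adjusted p = 0.00213) and Ppara (0.27, adjusted p = 0.0118) were lost without the mouse term (adjusted p = 0.0978, 0.109 and 0.205). Leaving out mouse 2 ended those of Nr1i3 (0.28, adjusted p = 0.0772) and Ppara (0.08, adjusted p = 0.593), leaving out mouse 1 that of Ppard (0.17, adjusted p = 0.105), and so did leaving out mouse 2 duplicate 1 of 0 h for Nr1i3 (0.24, adjusted p = 0.0631) and mouse 1 duplicate 1 of 0 h for Ppara (0.18, adjusted p = 0.166).

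Between 6 h and 24 h in vehicle 7 rose and 2 fell (all genes 25.4% and 24.5%). Besides Vdr, the rises were 2.08 for Nr1i3 (adjusted p = 1.23e-09), 1.11 for Nr1h3 (adjusted p = 1.40e-05), 0.94 for Ppara (adjusted p = 3.85e-07), 0.43 for Nr1i2, 0.33 for Thra and 0.24 for Nr1h4. Pparg fell by 0.50 (adjusted p = 0.000133) and Ppard by 0.22 (adjusted p = 0.0165). Without mouse 1 the values were 0.13 for Nr1h4 (adjusted p = 0.141) and -0.12 for Ppard (adjusted p = 0.239), and without mouse 2 the value was 0.20 for Thra (adjusted p = 0.0774), so these calls were lost. The Ppard call was also lost without the mouse term (adjusted p = 0.247) and without mouse 2 duplicate 1 of DMSO at 6 h (-0.19, adjusted p = 0.0537). Scaled to read sums, 2547 genes of the table were higher and 4559 lower for 24 h against 0 h (3317 and 3437 as deposited) and 2376 and 3662 for 24 h against 6 h (2882 and 2785). Quantile normalization gave 2681 and 4385, and 2323 and 3933.

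Levels with the antagonist were also set beside those at 0 h. Nr1i3 averaged 3.10 ± 0.352 RPKM with RXRi at 24 h, 16.7 ± 1.88 RPKM with DMSO at 24 h and 2.73 ± 0.408 RPKM at 0 h. Nr1h3 averaged 1.20 ± 0.204 RPKM with RXRi at 24 h, 7.60 ± 2.03 RPKM with DMSO at 24 h and 2.94 ± 0.204 RPKM at 0 h. Vdr averaged 3.47 ± 0.528 RPKM with RXRi at 24 h, 27.7 ± 5.08 RPKM with DMSO at 24 h and 14.6 ± 2.11 RPKM at 0 h (SD, n = 2 mice each). With RXRi at 24 h the 4 libraries of Vdr, Nr1h3, Nr1i2 and Thra lay below those at 0 h, and Nr1i3 overlapped them. The other 5 receptors, Ppara, Ppard, Pparg, Nr1h2 and Nr1h4, lay above theirs.

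The effect of RXRi grew or changed between 6 h and 24 h for 7 of the 10 receptors, where the effect changed for 35.1% of all tested genes. It went further down by 24 h for Vdr (difference of the log2 fold changes -1.97, adjusted p = 1.74e-05), Nr1h3 (-1.26, adjusted p = 0.000204), Nr1i3 (-1.13, adjusted p = 1.00e-05) and Nr1i2 (-0.45, adjusted p = 0.000318). It went further up for Ppard (0.55, adjusted p = 0.000693), Pparg (0.53, adjusted p = 0.00214) and Nr1h4 (0.43, adjusted p = 0.00298). For Nr1i2 the RXRi libraries of both times overlapped while those of DMSO did not. Without the mouse term the Ppard change was lost (adjusted p = 0.0694).

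The effect of atRA changed for 4 of the 10 (17.1% of all genes) and that of 9cisRA for 2 (18%), all upward. With atRA these were Nr1h2 (0.41, adjusted p = 0.0198), Ppara (0.40, adjusted p = 0.0252), Nr1h4 (0.39, adjusted p = 0.0136) and Nr1i2 (0.38, adjusted p = 0.00423). With 9cisRA they were Nr1h2 (0.41, adjusted p = 0.02) and Nr1h4 (0.30, adjusted p = 0.0403). The atRA change of Ppara was lost with read-sum scaling (adjusted p = 0.0761), without the mouse term (adjusted p = 0.281) and without either mouse (adjusted p = 0.22 without mouse 1 and 0.0755 without mouse 2). Without mouse 1 the changes of Nr1h2 and Nr1i2 with atRA were lost (0.24 and 0.28, adjusted p = 0.335 and 0.134). Without the mouse term those of Nr1h2 and Nr1h4 with atRA had adjusted p = 0.0805 and 0.0552, and that of Nr1h4 had adjusted p = 0.0595 with read-sum scaling. That of Nr1h2 with atRA was also lost without mouse 2 duplicate 2 of atRA at 6 h (0.36, adjusted p = 0.0571). With 9cisRA the change of Nr1h2 was lost without the mouse term (adjusted p = 0.0842) and without mouse 1 (adjusted p = 0.0788). That of Nr1h4 was lost with quantile normalization (adjusted p = 0.074), read-sum scaling (0.18, adjusted p = 0.21), without the mouse term (adjusted p = 0.124) and without mouse 2 (0.19, adjusted p = 0.177). It was also lost without mouse 1 duplicate 2 of 9cisRA at 6 h (adjusted p = 0.0527), mouse 1 duplicate 2 of DMSO at 24 h (adjusted p = 0.0548), or mouse 1 duplicate 1 (adjusted p = 0.0575) or mouse 2 duplicate 2 of 9cisRA at 24 h (adjusted p = 0.0561).

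Of the RXR genes, Rxra was called lower with the antagonist and Rxrb was not called with any compound. Rxra averaged 19.0 ± 0.864 RPKM with 9cisRA, 16.6 ± 0.228 RPKM with atRA, 13.1 ± 0.485 RPKM with RXRi and 16.8 ± 1.14 RPKM with DMSO at 24 h (SD, n = 2 mice). RXRi lowered it by 0.34 on the log2 scale at both times (adjusted p = 0.000787 at 6 h and 0.000176 at 24 h), and the atRA difference at 24 h was within the spread of the mice. The rise with 9cisRA at 24 h (0.17, adjusted p = 0.0274) was lost with read-sum scaling (0.04, adjusted p = 0.513), without mouse 1 (adjusted p = 0.157) and without mouse 2 (adjusted p = 0.076). It was also lost without mouse 1 duplicate 2 (adjusted p = 0.0571) or mouse 2 duplicate 1 of 9cisRA (adjusted p = 0.0666) and without mouse 2 duplicate 1 of DMSO (adjusted p = 0.0826). Rxrb ranged from 13.9 to 19.0 RPKM over the condition means and gave no call against DMSO. Rxrg was not analysed here.

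Of the other receptors that can pair with RXR, Rarg, Nr4a1 and Nr4a2 rose and Thrb fell with the antagonist at 24 h. The isomers moved Rarg and Thrb in the same directions by smaller amounts. With 9cisRA, Nr4a2 was lower at 24 h (-0.30, adjusted p = 0.0392) and Nr4a1 at 6 h (-0.40, adjusted p = 0.0195). Without the mouse term the Nr4a2 and Nr4a1 calls with 9cisRA were lost (adjusted p = 0.105 and 0.0604). Rarg averaged 7.55 ± 0.554 RPKM with RXRi and 3.93 ± 0.166 RPKM with DMSO at 24 h (0.86, adjusted p = 6.42e-07), and rose by 0.49 at 6 h (adjusted p = 0.000483). Either isomer raised Rarg by 0.29 at 24 h (adjusted p = 0.0117 for atRA and 0.00861 for 9cisRA). Both of these calls were lost without the mouse term (adjusted p = 0.102 and 0.081) and with read-sum scaling (0.0522 and 0.0789). Thrb, the second thyroid hormone receptor gene, averaged 0.887 ± 0.152 RPKM with RXRi and 2.88 ± 0.4996 RPKM with DMSO at 24 h (-1.28, adjusted p = 3.98e-08). The direction was that of Thra. This RXRi mean lies below the value used in the filter, so Thrb passed through conditions in which it was higher. Its calls are given as a description only. At 24 h Thrb was also lower with atRA (-0.41, adjusted p = 0.00339) and 9cisRA (-0.27, adjusted p = 0.0266). The 9cisRA call was lost without the mouse term (adjusted p = 0.0984), and both calls were lost without mouse 2 (-0.33 and -0.15). Nr4a2, an orphan receptor that pairs with RXR, averaged 4.12 ± 0.695 RPKM with RXRi and 1.63 ± 0.178 RPKM with DMSO (1.12, adjusted p = 1.10e-06). Nr4a1 rose by 0.42 with RXRi at 24 h (adjusted p = 0.00177), a call lost without mouse 2 (0.39). Rara rose with 9cisRA at 24 h (0.43, adjusted p = 0.000117), at 9.64 ± 0.483 RPKM against 7.01 ± 0.516 RPKM with DMSO. It also rose with atRA at 24 h (0.22, adjusted p = 0.0143), a call lost with read-sum scaling (adjusted p = 0.0988) and without the mouse term (0.112). With RXRi Rara was at 0.05 at 24 h (adjusted p = 0.533) and fell by 0.28 at 6 h (adjusted p = 0.00458), a call lost without the mouse term (adjusted p = 0.0661) and without mouse 1 (-0.17, adjusted p = 0.29). Rarb was not analysed here.

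Genes known to respond to each receptor were described as lists, beside the share of all tested genes given above. Some listed genes reached a mean of 1 RPKM in at most 3 of the 9 conditions and so passed the filter only through the conditions in which they were high: Cyp4a10 and Cd36 (PPAR), Abca1 (LXR), Nr0b2 and Fabp6 (FXR) and Slc30a10 (VDR). Their calls are counted but support nothing. With a filter of 18 libraries the counts at 24 h with 9cisRA and atRA were 17 and 16 of 18 for the PPAR list, 7 and 7 of 9 for the LXR list and 3 and 3 of 4 for the FXR list. PPAR-responsive genes, mostly enzymes of fatty acid oxidation, rose with both isomers: 18 of 20 with 9cisRA and 17 of 20 with atRA at 24 h, and 14 and 8 at 6 h, with 0 lower in each. Their median log2 fold change was 1.09 with 9cisRA and 0.93 with atRA at 24 h, against -0.00 over all genes for both. Pdk4, the kinase that spares pyruvate when fat is burned, averaged 14.2 ± 1.26 RPKM with 9cisRA, 7.08 ± 0.491 RPKM with atRA and 0.235 ± 0.0429 RPKM with DMSO at 24 h (4.32, adjusted p = 5.44e-13, and 3.37, adjusted p = 1.38e-11). Its DMSO mean was below 1 RPKM at both times, so Pdk4 too passed the filter through conditions in which it was higher. Its calls are given as a description and support nothing. Cpt1a, the gate of fatty acids into mitochondria, averaged 155 ± 0.596 RPKM with 9cisRA, against 56.2 ± 1.19 RPKM with DMSO (1.46, adjusted p = 1.05e-09).

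With RXRi the PPAR list was split, 7 higher and 7 lower of 20 at 24 h (median -0.10). Plin2, a coat protein of lipid droplets, averaged 323 ± 32.9 RPKM with RXRi and 140 ± 9.15 RPKM with DMSO (1.20, adjusted p = 4.76e-09). Acsl1, which activates fatty acids, averaged 13.1 ± 0.115 RPKM with RXRi and 24.2 ± 1.43 RPKM with DMSO (-0.86, adjusted p = 7.67e-09). At 6 h 6 rose and 4 fell, and Pdk4 was among those that rose, at 1.07 ± 0.00563 RPKM with RXRi and 0.286 ± 0.0404 RPKM with DMSO (1.00, adjusted p = 5.66e-07). This DMSO mean lies below the value used in the filter. Without the mouse term 5 rose and 1 fell at 6 h. The PPAR count with atRA at 6 h was 4 without the mouse term and 12 without mouse 2.

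Genes of the PPAR and LXR lists were called between the isomers. At 6 h 8 of 20 PPAR-responsive and 6 of 10 LXR-responsive genes were higher with 9cisRA than with atRA, and at 24 h 4 and 3, with 0 lower in each. Pdk4 was 1.58 higher at 6 h (5.04 ± 0.179 RPKM with 9cisRA and 1.35 ± 0.0158 RPKM with atRA, adjusted p = 2.24e-07) and 0.96 higher at 24 h (adjusted p = 9.11e-05). It passed the filter through conditions in which it was high, so these calls are a description only. With the filter of 18 libraries the counts at 6 h were 9 of 18 for the PPAR list and 5 of 9 for the LXR list, and at 24 h 3 and 2. Without the mouse term the counts at 6 h were 4 for the PPAR list and 3 for the LXR list. At 24 h the PPAR count was 2 with quantile normalization, without the mouse term or without the trend in the prior, 7 without mouse 1, 10 with the 36 libraries as samples and 13 in voom. The LXR count at 24 h was 1 without the mouse term, 5 with the 36 libraries as samples and 7 in voom.

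With the antagonist 9 of 10 LXR-responsive genes fell and 1 rose at 24 h, and 9 fell and 0 rose at 6 h, counting Nr1h3 itself, which is on the list. The 1 that rose was Fasn, fatty acid synthase, named after its value was seen, at 56.9 ± 1.51 RPKM with RXRi and 42.9 ± 0.285 RPKM with DMSO (0.40, adjusted p = 0.00156). Their medians were -0.81 and -0.54. Abcg5, which with Abcg8 pumps sterols back into the gut lumen, averaged 4.94 ± 1.05 RPKM with RXRi and 62.3 ± 9.88 RPKM with DMSO at 24 h (-3.53, adjusted p = 1.85e-12). With the isomers 8 of 10 rose at 24 h, with medians of 1.15 for 9cisRA and 0.64 for atRA, and at 6 h 8 rose with 9cisRA and 3 with atRA. Scd1, a fatty acid desaturase, averaged 620 ± 152 RPKM with 9cisRA and 155 ± 26.9 RPKM with DMSO at 24 h (1.98, adjusted p = 1.39e-08). For atRA at 6 h the LXR count was 1 without the mouse term, without mouse 1 and without mouse 2 duplicate 2 of atRA, and 5 in voom and with the 36 libraries as samples.

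Most FXR-responsive genes were higher with both isomers and lower with the antagonist at 24 h. With the antagonist they went the other way from Nr1h4 itself, which was called higher. It averaged 21.4 ± 0.248 RPKM with RXRi and 15.7 ± 0.147 RPKM with DMSO at 24 h. Fgf15, the hormone by which the gut signals bile acids to the liver, averaged 41.3 ± 0.264 RPKM with 9cisRA, 56.3 ± 0.304 RPKM with atRA, 2.26 ± 0.0454 RPKM with RXRi and 4.88 ± 0.672 RPKM with DMSO. Against DMSO this was 2.96 with 9cisRA (adjusted p = 1.39e-09), 3.41 with atRA (adjusted p = 3.98e-10) and -0.95 with RXRi (adjusted p = 5.51e-06). Of 6 tested genes 4 rose with 9cisRA, 5 rose with atRA and 5 fell with RXRi at 24 h. Slc51a, a subunit of the bile acid exporter of the basolateral membrane, averaged 1.40 ± 0.135 RPKM with RXRi and 27.1 ± 1.73 RPKM with DMSO (-3.87, adjusted p = 1.53e-12).

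Between the isomers 3 of the 6 FXR-responsive genes were lower with 9cisRA than with atRA at 24 h and 0 were called at 6 h (limma, 0 with an unadjusted p below 0.05, and 0 in voom). Slc51a averaged 54.3 ± 9.35 RPKM with 9cisRA and 86.2 ± 11.4 RPKM with atRA (-0.67, adjusted p = 0.0057). The other 2 were Fabp6 and Nr0b2, which passed the filter only through the conditions in which they were high, so their calls support nothing. Without the mouse term the Slc51a difference was lost (adjusted p = 0.0559), and the FXR count was 1 there and with the filter of 18 libraries, and 5 in voom and with the 36 libraries as samples.

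PXR- and CAR-responsive genes fell with the antagonist together with Nr1i2 and Nr1i3: 14 of 15 at 24 h with 0 higher (median -1.93) and 13 of 15 at 6 h with 1 higher (median -0.72). At 6 h without the mouse term 9 were lower. Cyp3a25, a drug-metabolizing cytochrome P450, averaged 0.172 ± 0.0307 RPKM with RXRi and 69.9 ± 12.3 RPKM with DMSO at 24 h (-6.70, adjusted p = 6.25e-12). Aldh1a7, an aldehyde dehydrogenase, averaged 5.34 ± 1.05 RPKM with RXRi and 47.1 ± 6.78 RPKM with DMSO (-3.03, adjusted p = 2.58e-12). Cyp2b10, the classical CAR-induced gene, and Cyp3a11, the classical PXR-induced gene, are named after their values were seen. Cyp2b10 averaged 6.67 ± 0.388 RPKM with RXRi and 350 ± 29.5 RPKM with DMSO, and Cyp3a11 0.543 ± 0.00739 RPKM with RXRi and 127 ± 22.3 RPKM with DMSO. How reads shared by near-identical copies (Cyp3a, Cyp2c, Gsta, Acot and Scd genes) were counted is not stated.

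With the isomers the same list had no common direction. At 24 h 7 rose and 2 fell with 9cisRA and 8 rose and 4 fell with atRA, and at 6 h 4 rose with 9cisRA. With atRA at 6 h 0 were called (limma, 5 with an unadjusted p below 0.05), 4 in voom. The PXR and CAR count with 9cisRA at 6 h was 0 without the mouse term and 7 without mouse 2. Gsta1, a glutathione transferase, rose by 0.71 with either isomer at 24 h (adjusted p = 3.29e-06 for 9cisRA and 5.17e-06 for atRA). Cyp2c29, a cytochrome P450, averaged 50.3 ± 8.65 RPKM with 9cisRA, 59.0 ± 13.1 RPKM with atRA and 162 ± 2.22 RPKM with DMSO (-1.69, adjusted p = 3.63e-06, and -1.47, adjusted p = 1.85e-05). Between the isomers 0 genes of the list were called by limma (3 with an unadjusted p below 0.05 at 6 h and 6 at 24 h), and voom called 1 higher and 1 lower at 6 h and 3 higher and 1 lower at 24 h.

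VDR-responsive genes did not share 1 direction with Vdr. Of 4 tested, 2 rose and 2 fell with RXRi at 24 h. Those that rose were Atp2b1 (0.33, adjusted p = 0.00232) and Cdkn1a (0.34, adjusted p = 0.000543), named after their values were seen. S100g, the calcium-binding protein of enterocytes, averaged 254 ± 47.0 RPKM with 9cisRA, 184 ± 17.6 RPKM with atRA, 44.2 ± 3.45 RPKM with RXRi and 83.4 ± 10.7 RPKM with DMSO. Against DMSO this was 1.58 with 9cisRA (adjusted p = 2.19e-06), 1.14 with atRA (adjusted p = 5.07e-05) and -0.90 with RXRi (adjusted p = 8.44e-05). Slc30a10, a manganese exporter induced by vitamin D in human gut cells, averaged 0.0215 ± 0.00329 RPKM with RXRi and 2.21 ± 0.294 RPKM with DMSO. It passed the filter only through conditions in which it was high, so its fall is counted but supports nothing. S100g was called higher with both isomers, where Vdr was not called.

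Of 3 tested thyroid hormone-responsive genes 2 rose with RXRi at 24 h, where Thra fell. Me1, malic enzyme, averaged 157 ± 2.14 RPKM with 9cisRA, 132 ± 6.01 RPKM with atRA, 116 ± 3.20 RPKM with RXRi and 71.8 ± 1.35 RPKM with DMSO, and was called higher with all 3 (1.12, 0.87 and 0.68, adjusted p = 1.36e-08, 1.93e-07 and 1.39e-07). Of 10 tested coregulators, 3 rose and 2 fell with RXRi at 24 h. Ppargc1b, a coactivator of mitochondrial genes, fell by 0.79 at 24 h (adjusted p = 1.42e-05) and 0.88 at 6 h (adjusted p = 2.19e-05), and Ncoa3, a steroid receptor coactivator, rose by 0.48 at 24 h (adjusted p = 1.04e-05).

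**Figure D4:**
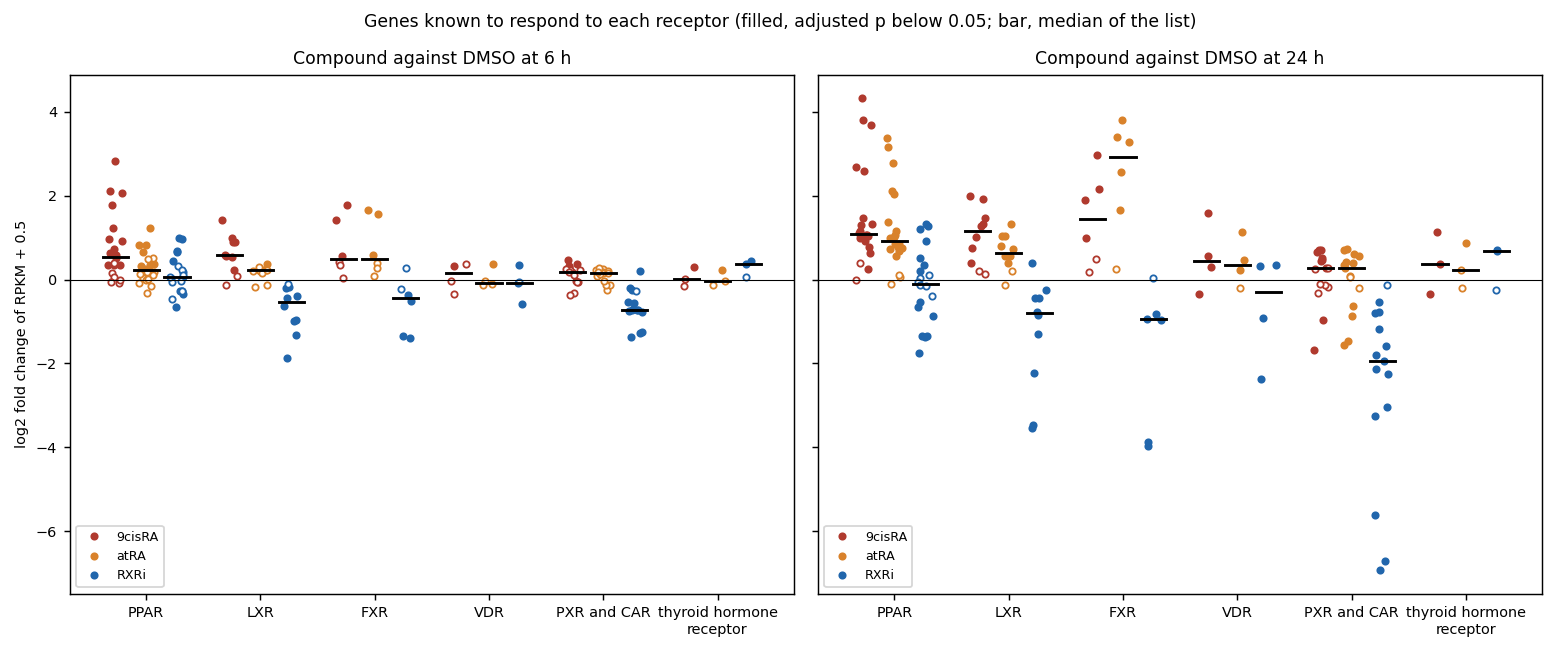
Log2 fold change of RPKM + 0.5 against DMSO (y axis) of genes known to respond to each receptor (x axis) at 6 h (left) and 24 h (right), for 9cisRA, atRA and RXRi. Each point is a gene, filled where called at an adjusted p below 0.05, and the bar is the median of the list. The PXR and CAR list has a median of -1.93 with RXRi at 24 h and the PPAR list one of 1.09 with 9cisRA.

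Marker lists of several cell types moved in the comparisons in which the receptors did. The 6 enterocyte markers summed to 400 to 545 RPKM with RXRi at 24 h, against 2790 to 4290 RPKM with DMSO, and all 6 were lower. At 6 h the sums were 224 to 287 RPKM with RXRi and 401 to 594 RPKM with DMSO, with 5 of 6 lower. None was at 0 in any library: Alpi, the brush border phosphatase, still averaged 39.3 ± 10.2 RPKM with RXRi and 571 ± 13.7 RPKM with DMSO at 24 h. Against DMSO at 24 h, 3 rose and 1 fell with 9cisRA, and 2 rose and 1 fell with atRA. In DMSO itself all 6 were higher at 24 h than at 0 h. The part of the enterocyte markers in the changes of the receptors and of their responsive genes was not tested.

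Stem cell and dividing cell markers had lower sums with every compound at 24 h. The 5 stem cell markers, of which 4 were tested, summed to 17.3 to 21.5 RPKM with 9cisRA, 18.1 to 26.5 RPKM with atRA, 15.3 to 20.9 RPKM with RXRi and 37.4 to 47.8 RPKM with DMSO, and 4, 4 and 3 of the 4 fell with 9cisRA, atRA and RXRi. The 3 markers of dividing cells summed to 61.0 to 83.6 RPKM with 9cisRA, 74.6 to 83.3 RPKM with atRA, 77.2 to 87.0 RPKM with RXRi and 116 to 129 RPKM with DMSO, and 3 of 3 fell with each. Paneth cell markers fell with RXRi at 24 h, 3 of 3, at 38.5 to 122 RPKM against 156 to 245 RPKM with DMSO. The 7 epithelial markers summed to 11900 to 12400 RPKM with RXRi and 6260 to 7060 RPKM with DMSO, and 3 of 7 rose and 4 fell. Most of the sum was 2 keratins, Krt8 at 6840 ± 24.2 RPKM with RXRi and 3420 ± 274 RPKM with DMSO and Krt18 at 4040 ± 52.9 RPKM with RXRi and 1770 ± 181 RPKM with DMSO. Cdx2, a transcription factor of intestinal identity, averaged 38.6 ± 1.52 RPKM with RXRi and 63.1 ± 3.00 RPKM with DMSO. The goblet cell markers summed to 299 to 438 RPKM with RXRi and 246 to 285 RPKM with DMSO at 24 h, where 2 of 3 rose, and in DMSO all 3 were higher at 24 h than at 0 h. Both enteroendocrine markers were lower in DMSO at 24 h than at 0 h. Of the 2 analysed markers of other cells 1 was called higher with each compound at 24 h. Cd68, a macrophage marker, averaged 4.44 ± 0.928 RPKM with 9cisRA, 4.6 ± 0.859 RPKM with atRA, 3.68 ± 0.174 RPKM with RXRi and 2.56 ± 0.0981 RPKM with DMSO. The part of these markers in the receptor changes was not tested.

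**Figure D5:**
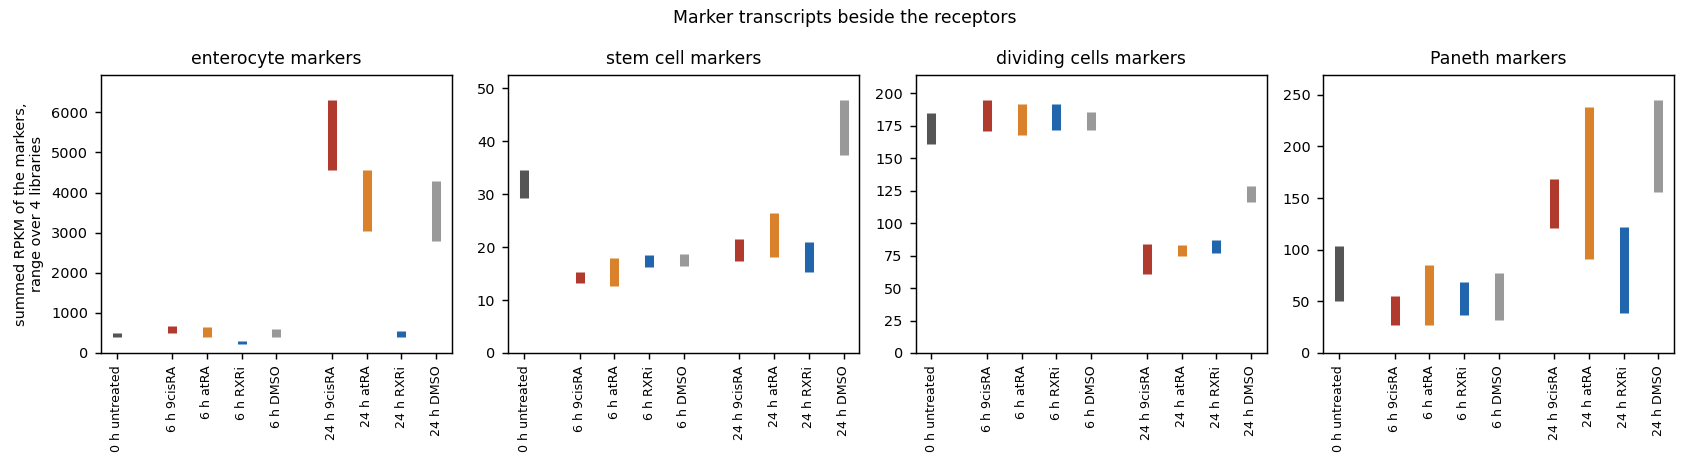
Summed RPKM of the markers of enterocytes, stem cells, dividing cells and Paneth cells (y axis, linear from 0) by condition (x axis). Each bar spans the lowest to the highest of 4 libraries. The enterocyte sum lies at 400 to 545 RPKM with RXRi at 24 h and at 2790 to 4290 RPKM with DMSO at 24 h.

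Genes with the most similar course were sought for the 3 receptors of widest range over the 18 values of mouse and condition. For Nr1i3 these were Clec2e (Pearson r = 0.991), Fahd1 (0.989) and Ces1e (0.989), for Ppara Rnf103 (0.983), Rab43 (0.981) and Lipa (0.978), and for Vdr Tspan3 (0.985), Cd302 (0.982) and Epb41l3 (0.982). The 18 values share mice, cultures and library preparation, and the likeness is a description only.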

How the data were processed

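RNA of 36 libraries was prepared with a TruSeq mRNA kit. Values are RPKM as deposited by the authors, for 12652 genes. Per the submitters' processing notes, bcl2fastq 2.17 and STAR 2.5.2b were used with mm10. The counting step, its strand setting and its handling of shared reads are not given in the sources used here. Whole reads were recovered from the low steps of the values for 100% of genes (tolerance 0.05 reads), at 19640305 to 30686200 reads per library. The divisor in the RPKM was below these reads in every library at 24 h and above them at 0 h and 6 h. The deposited values thus carry a scaling that differs from read-sum scaling and varies with time, and its origin was not tested. Every gene is thus known to about the square root of its reads, which covers counting error only.

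Duplicate purifications were averaged per mouse and condition, giving 18 values per gene. These were log2(RPKM + 0.5), for 11361 genes with at least 1 RPKM in at least 4 libraries, and were fitted in limma 3.58.1 (R 4.3.3) with condition and mouse as terms and an intensity trend (8 residual and 5.01 prior degrees of freedom). P-values are two-sided and Benjamini-Hochberg adjusted over all tested genes within each of 14 comparisons, with calls at 0.05. The mouse is a block because all conditions come from the same 2 mice, per the labels. The difference between the mice in 1 condition was correlated with that in another (median r 0.441, 0.0372 to 0.662, 36 pairs of conditions). The steps were tested on simulated data.

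The members and lists were chosen with earlier results of these data known. Named by rule were all 10 receptors, their partners, up to 2 genes of each list with the smallest p in a comparison, and the 3 genes most alike the 3 receptors of widest range. Fgf15 with RXRi, Atp2b1 and Cdkn1a with RXRi, Cyp2b10, Cyp3a11, Fasn, the named markers and values repeated for a named gene in other conditions fall outside it. The alternatives were other pseudocounts, filters and scalings, voom on the recovered reads, no mouse term, 36 libraries as samples, no trend in the prior, and leaving out each library or mouse. Voom also took the 36 libraries as samples, so its calls too count duplicates as independent. Fits without a mouse use the duplicates of the other mouse as samples, so their error is that between duplicates of 1 culture.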

Additional observations from a re-analysis of the deposited data

Results flagged for a closer look

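In 1 of 90 groups of 4 libraries examined (10 receptors in 9 conditions), 1 library stood apart. It was that of Thra with atRA at 24 h, where mouse 2 duplicate 1 had 13.1 RPKM and the other 3 libraries 12.2 to 12.3 RPKM. The gap was 0.838 of the range, above Dixon's 95% critical value for 4 libraries, and chance gives about 1 such library in 20 groups.

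The effect against DMSO differed between 24 h and 6 h, by the test of the difference itself in limma, in 13 results. With atRA the difference of the log2 fold changes was 0.40 for Ppara, 0.41 for Nr1h2, 0.39 for Nr1h4 and 0.38 for Nr1i2. With 9cisRA it was 0.41 for Nr1h2 and 0.30 for Nr1h4. With RXRi it was -1.97 for Vdr, -1.26 for Nr1h3, -1.13 for Nr1i3 and -0.45 for Nr1i2, and 0.55 for Ppard, 0.53 for Pparg and 0.43 for Nr1h4.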

How the results depend on the processing

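Of 72 called results of the 10 receptors 46 kept their call and direction under every alternative, all 9 calls of RXRi at 24 h among them, and none changed direction. Among uncalled values 40 changed sign. Of 150 called results of the other receptors and named list genes 107 kept their call and none changed direction. The cause of the lost calls was not tested. Without the replicate block (the mouse term), 3 receptors instead of 5 were called for 9cisRA at 6 h, 3 instead of 6 for DMSO at 6 h against 0 h, 1 instead of 4 for the change of the atRA effect and 0 instead of 2 for that of the 9cisRA effect. With the 36 libraries as samples, 5 instead of 3 were called for atRA at 6 h, 4 instead of 0 for 9cisRA against atRA at 6 h and 4 for the change of the 9cisRA effect. Voom, which also takes the 36 libraries as samples, called 4 and 1 between the isomers at 6 h and 24 h and 4 for the change of the 9cisRA effect. Read-sum scaling gave 2 and 1 for the changes of the atRA and 9cisRA effects, and quantile normalization 1 for that of the 9cisRA effect. With single libraries or a mouse left out, counts ran from 0 to 3 between the isomers at 6 h (3 without mouse 2 duplicate 1 of atRA), 1 to 4 for the change of the atRA effect (1 without mouse 1) and 1 to 4 for that of the 9cisRA effect (4 without mouse 2 duplicate 2 of DMSO at 6 h). With 2 mice, small differences were not resolved.

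The split of all called genes into higher and lower moved by over 10 points with read-sum scaling also for the changes between 24 h and 6 h of the effects of 9cisRA (557 higher and 2222 lower), atRA (571 and 1707) and RXRi (1579 and 2379), and between the isomers at 24 h (23 and 28). Quantile normalization gave 874 and 938 for the atRA change.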
